A study of Mus musculus with 8 samples.

Results

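The genes described here are the replication and S phase genes of mouse granulocyte progenitors (GPs). They form a list of 38 genes, chosen by name, whose probes on the array were found through the RefSeq accession of each probe. All 38 were among the 14106 genes tested, and their 45 probes were all well above background on all 8 arrays, so no member was lost to the filter on dim probes. The study sorted GPs from mouse bone marrow by the surface receptor Flt3 and measured total RNA on one-colour arrays. Each of 2 independent experiments gave 1 array to each of 4 groups. The groups were Flt3+ GPs and Flt3- GPs labelled Irf8KO (deficient for Irf8, a transcription factor that directs myeloid progenitors towards monocytes and dendritic cells), and Flt3+ GPs and Flt3- GPs labelled wild type (WT). All cells were primary isolated cells. The sources used here give no age, no form of the Irf8 deletion and no number of animals behind a sample. The p-values therefore reflect the spread between the 2 arrays of a group, pooled over the 4 groups and moderated across genes. Part of that spread may be technical.

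The labels were checked first. The Irf8 probe read 6.67 on both Flt3+ arrays labelled Irf8KO and 5.64 and 5.53 on the Flt3- arrays labelled Irf8KO, against 5.80 and 5.87 on the WT Flt3+ arrays and 4.85 and 4.88 on the WT Flt3- arrays. It read higher where the label says Irf8KO, and where the probe lies with respect to the deletion is unknown here. It therefore leaves the genotype unchecked. Every direction between genotypes rests on the labels, and "labelled Irf8KO" is written throughout. Flt3 followed the sort, with 6.29 and 6.30 on the Flt3+ arrays against 2.71 and 2.68 on the Flt3- arrays labelled Irf8KO, and 6.21 on both Flt3+ arrays against 1.69 and 1.66 on the Flt3- arrays in WT. The granulocyte progenitor genes Elane and Mpo were above background in all groups. Elane, the neutrophil elastase gene, read between 3.58 and 8.80. The correlation of the 2 arrays of a group across genes was 0.9958 to 0.9975. Levels are given as log2 signal minus the log2 75th percentile of that array, and a difference is a difference of group means on that scale with its standard error (SE). The level of one probe is not comparable with that of another. In bulk RNA, fewer cells of a type and less RNA per cell cannot be told apart, so a lower level of these genes may stand for either.

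A cell copies its DNA once per division cycle. In G1 the origin recognition complex, Cdc6 and Cdt1 place the ring-shaped Mcm2-7 helicase on DNA. At the start of S phase cyclin E, Cdc45 and the GINS complex help to turn the helicase on, and polymerases held by the Pcna clamp then copy both strands. E2F transcription factors switch on most of these genes at the border of G1 and S phase. Neutrophil progenitors divide actively and leave the cell cycle as they mature.

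Because the members are known as a class of E2F-regulated genes, their promoters were searched for the letters of the E2F site. The windows were RefSeq sequences on GRCm38.p6, from 250 bases before to 50 bases after the start of a gene. Of the 38 members, 32 had a window, 37 windows in all. Ccne2, Gins1, Gins2, Mcm4, Pole and Rfc2 are named only. The search took TTTGGCGC, TTTCGCGC, TTTCCCGC or TTTGCCGC on either strand. Matches may overlap each other. At least 1 match was present in 12 of 32 members (37.5%), against 2.6% of all 27025 genes with a window. Counted by window, these were 32.4% for the members and 2.26% of 32851 windows. Of 43 other replication and S phase genes with a window, which are not members, 18 (41.9%) held a match. The members with a match were Mcm3, Mcm5, Mcm6, Mcm7, Orc1, Cdc6, Cdt1, Pola1, Pold1, Rfc3, Lig1 and Uhrf1. A match describes letters in the window and is neither a site nor a cause, and a window without one says only that these letters are not in it.

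The windows below are those of helicase, licensing and clamp loader genes that hold matches, chosen to show how the matches lie, and that of Rrm2, which has no match and one of the largest differences between arrays. Capitals mark the matches, and all sequences run 5′ to 3′ in the direction of the gene. Mcm5 (chr8:75109259-75109558 (plus strand)) and Mcm6 (chr1:128359656-128359955 (minus strand)) each hold a pair of overlapping matches on opposite strands, and Mcm6 holds a further match nearer the start. In Mcm3 (chr1:20820263-20820562 (minus strand)) both matches lie after the start.
Mcm5: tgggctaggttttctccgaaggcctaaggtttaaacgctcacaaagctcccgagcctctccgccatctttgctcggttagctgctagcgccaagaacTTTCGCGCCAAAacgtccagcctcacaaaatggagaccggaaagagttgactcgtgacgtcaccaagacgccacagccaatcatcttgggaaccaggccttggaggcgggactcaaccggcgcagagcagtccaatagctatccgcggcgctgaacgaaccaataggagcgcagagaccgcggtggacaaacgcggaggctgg
Mcm6: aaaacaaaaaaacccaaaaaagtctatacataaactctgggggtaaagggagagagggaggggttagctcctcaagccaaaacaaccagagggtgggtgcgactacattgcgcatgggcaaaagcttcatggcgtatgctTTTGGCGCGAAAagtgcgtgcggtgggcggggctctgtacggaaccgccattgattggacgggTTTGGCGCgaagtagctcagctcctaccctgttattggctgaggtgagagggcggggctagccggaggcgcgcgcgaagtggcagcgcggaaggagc
Mcm3: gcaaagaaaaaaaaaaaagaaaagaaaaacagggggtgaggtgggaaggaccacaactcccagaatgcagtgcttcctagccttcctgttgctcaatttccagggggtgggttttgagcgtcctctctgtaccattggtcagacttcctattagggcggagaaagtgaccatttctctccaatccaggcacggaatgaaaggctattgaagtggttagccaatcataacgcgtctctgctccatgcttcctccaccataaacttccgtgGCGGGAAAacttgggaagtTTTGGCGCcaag
Orc1 (chr4:108579204-108579503 (plus strand)) has 1 match, which begins at base -27 from the start, and Cdc6 (chr11:98907901-98908200 (plus strand)) has 1 that begins at base -138. Rfc3 (chr5:151651159-151651458 (minus strand)) has 2, of which the second begins at the first base of the transcript. Rrm2 lies at chr12:24708004-24708303 (plus strand).
Orc1: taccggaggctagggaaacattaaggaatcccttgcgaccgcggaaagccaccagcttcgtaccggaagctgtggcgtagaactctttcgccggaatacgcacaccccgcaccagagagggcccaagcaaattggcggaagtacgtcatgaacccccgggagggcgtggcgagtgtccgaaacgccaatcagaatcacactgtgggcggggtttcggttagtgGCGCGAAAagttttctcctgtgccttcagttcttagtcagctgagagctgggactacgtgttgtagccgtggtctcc
Cdc6: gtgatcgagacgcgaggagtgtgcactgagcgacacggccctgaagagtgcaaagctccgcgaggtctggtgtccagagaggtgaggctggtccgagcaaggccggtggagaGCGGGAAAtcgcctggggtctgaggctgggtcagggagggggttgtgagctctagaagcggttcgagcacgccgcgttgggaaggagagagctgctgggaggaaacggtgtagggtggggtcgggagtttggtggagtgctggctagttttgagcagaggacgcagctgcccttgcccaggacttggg
Rfc3: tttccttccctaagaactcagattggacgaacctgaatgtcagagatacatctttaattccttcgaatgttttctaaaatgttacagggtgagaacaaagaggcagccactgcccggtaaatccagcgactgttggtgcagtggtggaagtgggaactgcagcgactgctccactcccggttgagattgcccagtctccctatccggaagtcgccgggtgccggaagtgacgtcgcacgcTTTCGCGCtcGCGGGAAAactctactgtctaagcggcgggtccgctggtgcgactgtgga
Rrm2: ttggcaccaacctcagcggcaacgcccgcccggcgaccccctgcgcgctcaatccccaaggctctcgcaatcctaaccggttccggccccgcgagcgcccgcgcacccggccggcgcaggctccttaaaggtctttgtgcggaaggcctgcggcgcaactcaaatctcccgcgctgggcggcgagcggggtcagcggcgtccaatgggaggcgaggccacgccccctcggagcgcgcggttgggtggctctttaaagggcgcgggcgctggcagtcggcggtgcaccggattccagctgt
Other letters were counted in the same windows. TTTGAA or TTCGAA, the letters of the CHR element of G2 and M phase genes, on either strand, were in 15.6% of the members, against 77.8% of 27 G2 and M phase genes and 21.7% of all genes. CCAAT, on either strand, was in 59.4% of the members, against 81.5% of the G2 and M phase genes and 41.1% of all genes. The E2F letters were in 1 of the 27 G2 and M phase genes.

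Across the 4 groups most replication genes were highest in WT Flt3- GPs, how many depending on the scaling. For 37 of the 38 members the mean of the WT Flt3- arrays was the highest of the 4 group means, Pole being the exception, a count that was 37 with normexp background correction and with the authors' table, 29 with the percentile over probes detected on all arrays and 21 after quantile normalization. The mean of the labelled Irf8KO Flt3- arrays was the lowest for 29 members. Over the 5 scalings this count was 29 to 35. The exceptions to the 29 were Mcm5, Mcm6, Orc1, Cdt1, Cdc45, Rrm2, Chaf1a, Slbp and Ccne2. Taken per array, the median deviation of the members from their own mean over all arrays was -0.04 and -0.01 in labelled Irf8KO Flt3+ GPs, -0.23 and -0.21 in labelled Irf8KO Flt3- GPs, -0.07 and -0.06 in WT Flt3+ GPs and 0.29 on both WT Flt3- arrays. Both Flt3+ groups thus lay between the 2 Flt3- groups. The heat map gives every member on every array.

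**Figure D1:**
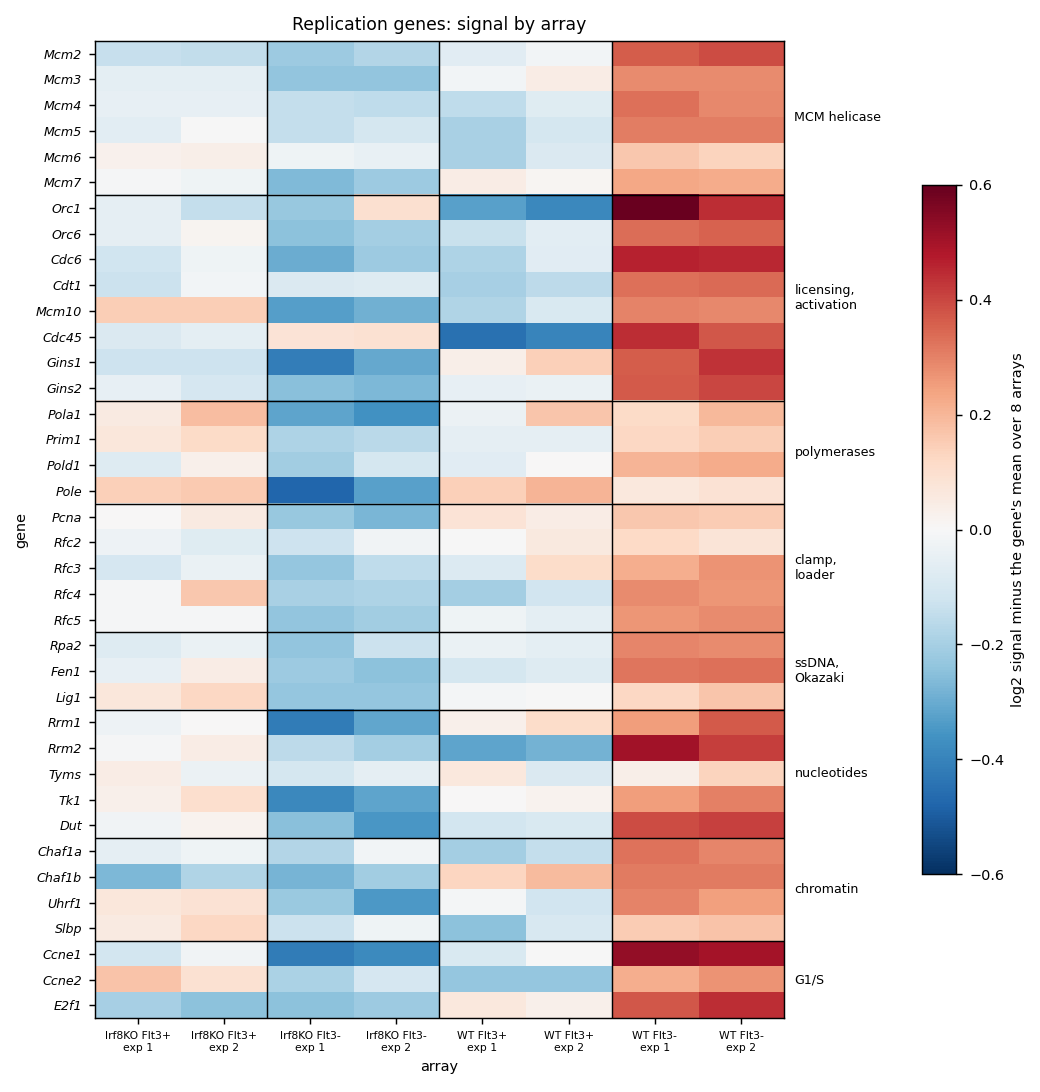
Heat map of the 38 replication genes (rows, grouped by role) on the 8 arrays (columns: labelled Irf8KO Flt3+, labelled Irf8KO Flt3-, WT Flt3+, WT Flt3-, with experiment 1 and 2 of each), coloured by the log2 signal minus the mean of the gene over all 8 arrays. The WT Flt3- columns are red for nearly all genes, and the labelled Irf8KO Flt3- columns are mostly blue. Among the exceptions are Cdc45 in both columns and Orc1 in that of experiment 2 only.

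The first comparison asked how GPs labelled Irf8KO differ from WT GPs within the Flt3- population. Replication genes fell together in Flt3- GPs labelled Irf8KO. The test called 37 of 38 members lower and none higher (limma, adjusted over all genes), where 27.2% of all genes were called lower and 16.5% higher. The differences of the 37 ran from -0.92 to -0.17, and the median of all 38 was -0.48, against -0.03 over all genes tested. Both labelled Irf8KO Flt3- arrays read below both WT Flt3- arrays for 38 of 38 members, which held for 42.7% of all genes. Ccne1, which encodes a cyclin that drives entry into S phase, differed most (-0.92, SE 0.052, adjusted p = 0.000227, 1.89-fold lower). After it came Gins1, a subunit of the helicase activator GINS (-0.76, SE 0.061, adjusted p = 0.000539), and the licensing factor Cdc6 (-0.72, SE 0.061, adjusted p = 0.00067). Next were Dut, which breaks down dUTP (-0.70, SE 0.049, adjusted p = 0.000402), and Rrm1, the large subunit of ribonucleotide reductase (-0.67, SE 0.064, adjusted p = 0.000933). Tyms, thymidylate synthase, did not pass (-0.16, SE 0.069, adjusted p = 0.111), and the smallest difference that passed was that of Rfc2, a subunit of the clamp loader (-0.17, SE 0.053, adjusted p = 0.0417). Within each experiment alone the median was -0.51 and -0.45, and all 38 members were below 0 in both. Over 5 ways of scaling the arrays, 35 members were called lower in all 5 and none changed sign. The others were Tyms, Ccne2 (-0.07 with another background correction) and Rfc2 (-0.03 after quantile normalization, and adjusted p = 0.0567 with the experiment as a replicate block). With 1 array left out, 33 to 37 members were called lower. Mcm6, Rfc2 and Slbp each lost their call without more than 1 of the arrays, and Orc1 without the WT Flt3- array of experiment 1.

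Among Flt3+ GPs, arrays labelled Irf8KO and WT arrays differed at fewer members and in both directions. Of 38 members 8 were called higher, 3 were called lower and 27 were not called, against 16.5% of all genes called higher and 12.5% called lower. These shares are near those of all genes. The median was 0.06, against 0.04 over all genes, and -0.02 after quantile normalization. Both labelled Irf8KO arrays read above both WT arrays for 20 members (39.1% of all genes) and below both for 8 members (27.6% of all genes). The members called higher were Mcm6, Mcm10, Cdc45, Prim1, Rfc4, Rrm2, Slbp and Ccne2, led by the cyclin Ccne2 (0.36, SE 0.052, adjusted p = 0.00553), Cdc45, a part of the active helicase (0.35, SE 0.044, adjusted p = 0.00348), the small ribonucleotide reductase subunit Rrm2 (0.32, SE 0.048, adjusted p = 0.00661), and Mcm10 (0.28, SE 0.045, adjusted p = 0.00809). Those called lower were Chaf1b, a subunit of the chromatin assembly factor CAF-1 (-0.39, SE 0.052, adjusted p = 0.00445), the transcription factor E2f1 (-0.27, SE 0.044, adjusted p = 0.00808) and Gins1 (-0.21, SE 0.061, adjusted p = 0.0481). Ccne2, Cdc45, Rrm2 and Mcm10 were called higher, and all 3 lower members lower, under all 5 scalings. Mcm2, Mcm3, Mcm7 and Pcna, not called here, were also called lower after quantile normalization. Cdt1, Fen1, Lig1, Mcm4, Mcm5, Pold1, Rfc5 and Tyms changed sign between scalings and were called under none of them. The count of 8 fell when 1 array was left out, to 3 without the labelled Irf8KO Flt3+ array of experiment 2, 4 without either WT Flt3- array or the WT Flt3+ array of experiment 1, and 5 without the other labelled Irf8KO Flt3+ array or either labelled Irf8KO Flt3- array. The count of 3 fell to 1 without the labelled Irf8KO Flt3+ array of experiment 2. The calls of Gins1 and Prim1 ended whichever of the 8 arrays was left out, those of Mcm6 and Rfc4 when any 1 of 7 arrays was left out and that of Slbp when any 1 of 5 was, and those of Chaf1b, Cdc45, Ccne2 and Rrm2 held without any 1 of them. The smallest differences were those of the polymerase delta subunit Pold1 (0.01, 95% interval -0.14 to 0.15) and the single-strand binding subunit Rpa2 (-0.01, 95% interval -0.14 to 0.11).

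The interaction asks whether the difference between genotypes itself differs between the populations, as the difference in Flt3+ GPs minus that in Flt3- GPs. It was called above 0 for 35 of 38 members and below 0 for none, where 21.4% of all genes were called above 0 and 9.45% below. The median was 0.53, against 0.07 over all genes. The largest interactions were those of Rrm2 (0.96, SE 0.068, adjusted p = 0.00136), Ccne1 (0.90, SE 0.074, adjusted p = 0.00179), Mcm10 (0.88, SE 0.064, adjusted p = 0.00143), Orc1 (0.85, SE 0.16, adjusted p = 0.0141) and Dut (0.80, SE 0.07, adjusted p = 0.00196). Rfc2 (0.09), Chaf1b (0.17) and Tyms (0.18) were not called. Under all 5 scalings 27 members were called, and the 35 called members had an interaction above 0 under each of them. With 1 array left out, 29 to 35 were called, and the calls that could be lost were those of Mcm6, Pola1, Pold1, Pole, Rfc3 and Slbp. Each of these members lost its call without the labelled Irf8KO Flt3+ array of experiment 2, where the count was 29. Of the 38 members, 26 were called lower in Flt3- GPs labelled Irf8KO and not called in Flt3+ GPs, as were 17.5% of all genes. A further 8 were called lower in Flt3- and higher in Flt3+ GPs, a pattern of 2.89% of all genes. Gins1, Chaf1b and E2f1 were called lower in both populations, as were 6.75% of all genes.

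Between the populations, within GPs labelled Irf8KO, replication genes were higher in Flt3+ than in Flt3- GPs. The test called 21 members higher and 1 lower, against 22.1% and 23.6% of all genes (45.8% in either direction). The median was 0.19, against -0.03 over all genes. Both Flt3+ arrays read above both Flt3- arrays for 31 members, which held for 34.7% of all genes, and below both for 1 member, Cdc45, which held for 41.7%. The largest differences were those of Pole, the catalytic subunit of DNA polymerase epsilon (0.55, SE 0.061, adjusted p = 0.000787), whose other probe read the opposite way, Pola1, of polymerase alpha (0.46, SE 0.083, adjusted p = 0.00595), Mcm10 (0.46, SE 0.045, adjusted p = 0.000525), thymidine kinase Tk1 (0.42, SE 0.049, adjusted p = 0.00106) and Uhrf1, which binds newly copied, half-methylated DNA (0.36, SE 0.061, adjusted p = 0.00472). Cdc45 was the only member called lower (-0.15, SE 0.044, adjusted p = 0.0325), and its call was lost when either array of the labelled Irf8KO groups or of the WT Flt3- group was left out. Licensing factor Cdt1 (0.01, 95% interval -0.11 to 0.13) and E2f1 (0.01, 95% interval -0.10 to 0.12) had the smallest differences. Under all 5 scalings 20 members were called higher. With 1 array left out, 15 to 22 were called higher, and the calls lost at least once were those of Fen1, Gins1, Gins2, Mcm3, Orc6, Rfc4 and Rrm2.

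Within WT GPs the direction was the other way at most members. In WT Flt3+ GPs 33 of 38 members were called lower than in WT Flt3- GPs and none higher, where 61.9% of all genes were called, 39.2% lower and 22.6% higher. The median was -0.34, against -0.12 over all genes, which is -0.22 relative to it. Both Flt3+ arrays read below both Flt3- arrays for 35 members, which held for 49.9% of all genes, and above both for 1 member, Pole, which held for 30.4%. The size of this fall depended on the scaling more than in the other comparisons. After quantile normalization 17 members were called lower and 7 higher, and the median was -0.11, or -0.10 relative to all genes. With the percentile taken over probes detected on all arrays the median was -0.18, or -0.22 relative to all genes. Called lower under all 5 scalings were 17 members, among them the 5 with the largest differences, Orc1 (-0.88, SE 0.11, adjusted p = 0.00113), Cdc45 (-0.83, SE 0.044, adjusted p = 3.34e-05), Rrm2 (-0.76, SE 0.048, adjusted p = 6.42e-05), Cdc6 (-0.59, SE 0.061, adjusted p = 0.000424) and Ccne1 (-0.56, SE 0.052, adjusted p = 0.000283). Of the members called lower, Chaf1b, Lig1, Mcm3, Mcm7, Pold1, Prim1, Rrm1, Tk1 and Uhrf1 were above 0 after quantile normalization. Pola1 (-0.09, 95% interval -0.30 to 0.11) and Rfc2 (-0.07, 95% interval -0.20 to 0.06) had the smallest differences. Both turned positive under another scaling. With 1 array left out, 27 to 31 members were called lower, and the calls lost at least once were those of Chaf1b, Lig1, Pold1, Prim1, Rfc3 and Rrm1.

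Both genotypes were then set side by side. Called higher in labelled Irf8KO Flt3+ and lower in WT Flt3+ GPs, each against Flt3- GPs, were 18 members, a pattern of 2.08% of all genes. This pattern depended on the scaling. Of the 18, Lig1, Mcm3, Mcm7, Prim1, Rrm1, Tk1 and Uhrf1 turned positive between WT populations after quantile normalization (0.01 to 0.22). Only Ccne1, Dut, Gins2, Orc6, Mcm10, Rfc4 and Rrm2 kept both calls under every scaling. The groups of the 2 comparisons between populations share no array.

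**Figure D2:**
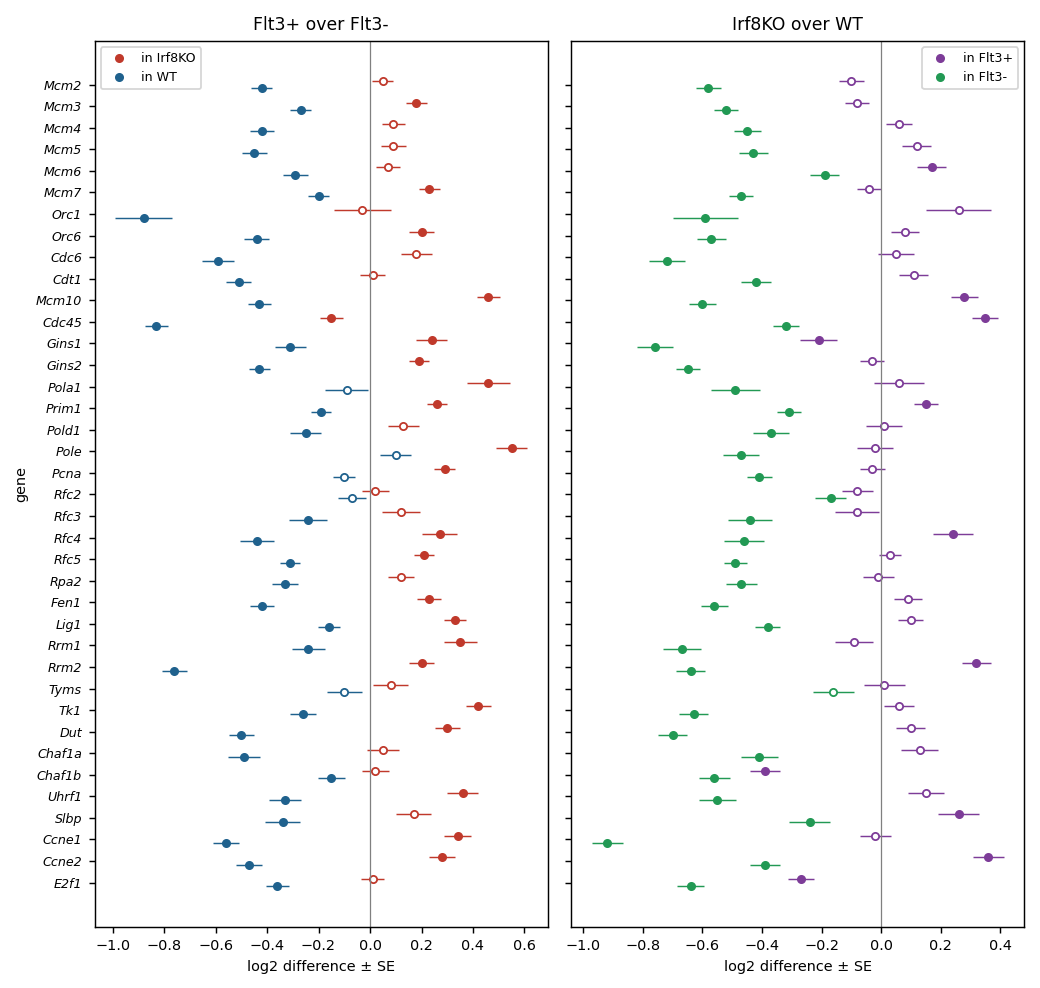
Log2 difference with its SE for each of the 38 replication genes, Flt3+ over Flt3- within labelled Irf8KO and within WT (left) and labelled Irf8KO over WT within Flt3+ and within Flt3- GPs (right). Filled points passed the test at an adjusted p under 0.05. In the right panel all Flt3- points lie below 0 and the Flt3+ points lie on both sides of it. In the left panel most labelled Irf8KO points lie above 0 and most WT points below.

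By role, the helicase core came first. The ring subunits Mcm2, Mcm3, Mcm4, Mcm5, Mcm6 and Mcm7 were all called lower in labelled Irf8KO than in WT Flt3- GPs, with differences from -0.58 for Mcm2 to -0.19 for Mcm6. Over all genes 27.2% were called lower there. In Flt3+ GPs only Mcm6 was called between genotypes (0.17, SE 0.048, adjusted p = 0.0464; 0.02 after quantile normalization, and adjusted p = 0.0633 with the experiment as a replicate block). Mcm2 read 4.23 and 4.22 on the labelled Irf8KO Flt3+ arrays, 4.15 and 4.19 on the labelled Irf8KO Flt3- arrays, 4.30 and 4.35 on the WT Flt3+ arrays and 4.73 and 4.76 on the WT Flt3- arrays. The WT Flt3- arrays stood apart from the other 6, which lay close together. Mcm6 read 7.33 and 7.34 on the labelled Irf8KO Flt3+ arrays, 7.28 and 7.26 on the labelled Irf8KO Flt3- arrays, 7.11 and 7.22 on the WT Flt3+ arrays and 7.47 and 7.44 on the WT Flt3- arrays, so that both groups labelled Irf8KO lay between the 2 WT groups. Between populations Mcm3 (0.18) and Mcm7 (0.23) were called higher in Flt3+ GPs labelled Irf8KO. All 6 were called lower in WT Flt3+ GPs, with Mcm3 and Mcm7 turning to 0.13 and 0.19 after quantile normalization. Over all genes 39.2% were called lower between WT populations.

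Of the genes of origin licensing and helicase activation, all 8 were called lower in labelled Irf8KO than in WT Flt3- GPs (median -0.60) and all 8 were called lower in WT Flt3+ than in WT Flt3- GPs (median -0.48). The shares of all genes called lower in these comparisons were 27.2% and 39.2%. Orc1, the largest subunit of the origin recognition complex, read -1.29 and -1.38 on the labelled Irf8KO Flt3+ arrays, -1.46 and -1.14 on the labelled Irf8KO Flt3- arrays, -1.56 and -1.62 on the WT Flt3+ arrays and -0.64 and -0.79 on the WT Flt3- arrays. The labelled Irf8KO Flt3- arrays had an SD of 0.23 here, the largest of any member in any group, and neither reached a WT Flt3- array. Its difference between genotypes in Flt3- GPs was -0.59 (SE 0.11, adjusted p = 0.00949). Cdc6 read 1.71 and 1.80 on the labelled Irf8KO Flt3+ arrays, 1.53 and 1.61 on the labelled Irf8KO Flt3- arrays, 1.64 and 1.76 on the WT Flt3+ arrays and 2.29 and 2.28 on the WT Flt3- arrays. Only the WT Flt3- arrays were above 2. Cdt1, the partner of Cdc6 in loading the helicase, read 5.34 and 5.45 on the labelled Irf8KO Flt3+ arrays, 5.38 and 5.39 on the labelled Irf8KO Flt3- arrays, 5.27 and 5.31 on the WT Flt3+ arrays and 5.80 and 5.81 on the WT Flt3- arrays. The 2 labelled Irf8KO groups overlapped, and the WT groups did not.

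Among the activators, Cdc45 read 0.24 and 0.27 on the labelled Irf8KO Flt3+ arrays, 0.41 and 0.42 on the labelled Irf8KO Flt3- arrays, -0.12 and -0.07 on the WT Flt3+ arrays and 0.77 and 0.70 on the WT Flt3- arrays. WT Flt3+ GPs were lowest, and labelled Irf8KO Flt3- GPs lay above labelled Irf8KO Flt3+ GPs. Between genotypes it was called higher in Flt3+ (0.35) and lower in Flt3- GPs (-0.32, SE 0.044, adjusted p = 0.00274). Mcm10, which helps the assembled helicase to open the origin, read 3.38 on both labelled Irf8KO Flt3+ arrays, 2.90 and 2.94 on the labelled Irf8KO Flt3- arrays, 3.05 and 3.14 on the WT Flt3+ arrays and 3.53 and 3.52 on the WT Flt3- arrays. The labelled Irf8KO Flt3+ and WT Flt3- arrays were the high ones. Gins1 read 2.94 on both labelled Irf8KO Flt3+ arrays, 2.65 and 2.76 on the labelled Irf8KO Flt3- arrays, 3.1 and 3.21 on the WT Flt3+ arrays and 3.43 and 3.5 on the WT Flt3- arrays. Here both groups labelled Irf8KO lay below both WT groups. Gins2, of the same complex, differed between genotypes in Flt3- GPs (-0.65, SE 0.04, adjusted p = 0.000286) and was not called in Flt3+ GPs (-0.03, 95% interval -0.13 to 0.07).

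The polymerases were lower in labelled Irf8KO than in WT Flt3- GPs at 4 of 4 genes (-0.49 to -0.31) and were called between genotypes in Flt3+ GPs only for Prim1, the primase that lays down RNA primers (0.15, SE 0.04, adjusted p = 0.0379). Of all genes, 27.2% were called lower between genotypes in Flt3- GPs and 29% were called in either direction in Flt3+ GPs. Pola1 read 3.49 and 3.62 on the labelled Irf8KO Flt3+ arrays, 3.12 and 3.07 on the labelled Irf8KO Flt3- arrays, 3.40 and 3.60 on the WT Flt3+ arrays and 3.55 and 3.63 on the WT Flt3- arrays. One group stood apart, the labelled Irf8KO Flt3- arrays, and the other 3 groups overlapped. Pold1 read 4.89 and 5.0 on the labelled Irf8KO Flt3+ arrays, 4.76 and 4.86 on the labelled Irf8KO Flt3- arrays, 4.90 and 4.97 on the WT Flt3+ arrays and 5.17 and 5.19 on the WT Flt3- arrays. The WT Flt3- arrays were highest and the Flt3+ groups of the 2 genotypes overlapped.

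Pole was the only member of 7 with 2 probes whose probes disagreed. The brighter probe, which stands for the gene in all counts, read 4.19 and 4.20 on the labelled Irf8KO Flt3+ arrays, 3.57 and 3.72 on the labelled Irf8KO Flt3- arrays, 4.19 and 4.25 on the WT Flt3+ arrays and 4.11 and 4.13 on the WT Flt3- arrays. Only the labelled Irf8KO Flt3- arrays were low, and the difference from WT Flt3- arrays was -0.47 (SE 0.061, adjusted p = 0.00228). The other probe, named through the same transcript accession, read -3.59 and -3.89 on the labelled Irf8KO Flt3+ arrays, -1.97 and -2.77 on the labelled Irf8KO Flt3- arrays, -3.89 and -4.12 on the WT Flt3+ arrays and -2.79 and -2.98 on the WT Flt3- arrays. It followed the sort, low in Flt3+ and high in Flt3- GPs of both genotypes. In the fit of all probes its difference between populations was -1.37 (SE 0.28, adjusted p = 0.0137) in GPs labelled Irf8KO, where the brighter probe stood at 0.55 (SE 0.065, adjusted p = 0.00191). In WT the probes stood at -1.12 (SE 0.28, adjusted p = 0.0197) and 0.10 (SE 0.065, adjusted p = 0.242). Between genotypes in Flt3- GPs the dimmer probe was not called (0.51, SE 0.28, adjusted p = 0.216). With the mean of both probes, Pole stood at -0.41 between populations in GPs labelled Irf8KO and at 0.02 between genotypes in Flt3- GPs, so its direction in both comparisons rests on the probe. What each probe detects was not tested. The other 6 genes with 2 probes (Ccne1, Cdc6, Chaf1b, Rfc4, Slbp and Uhrf1) had gaps of at most 0.35 between probes. Their calls were not always shared. In the fit of all probes the second Cdc6 probe was not called between WT populations (-0.24, SE 0.094, adjusted p = 0.0865). Neither probe was called in that fit for Slbp between genotypes in Flt3- GPs, for Rfc4 between genotypes in Flt3+ GPs or for Chaf1b between WT populations.

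**Figure D3:**
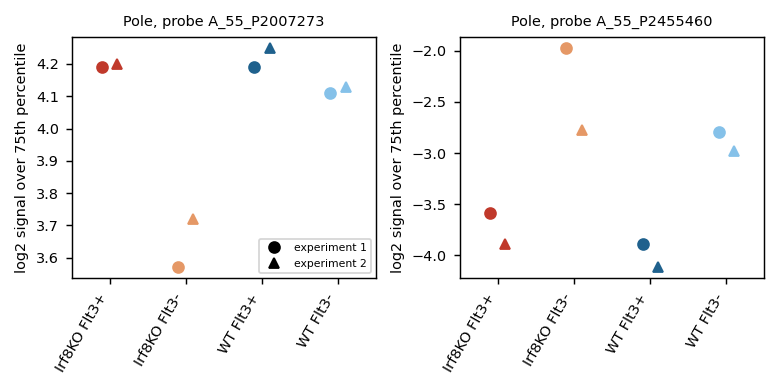
Log2 signal over the 75th percentile for the 2 Pole probes on each array, in labelled Irf8KO Flt3+, labelled Irf8KO Flt3-, WT Flt3+ and WT Flt3- GPs (circles experiment 1, triangles experiment 2, separate vertical scales). The brighter probe (left) is low only on the labelled Irf8KO Flt3- arrays, and the dimmer probe (right) is higher in the Flt3- than in the Flt3+ groups of both genotypes.

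Of the sliding clamp and its loader, 3 of 5 genes were called lower in WT Flt3+ than in WT Flt3- GPs (median -0.24). Over all genes 39.2% were called lower in this comparison, with a median of -0.12. Pcna, the clamp that tethers polymerases to DNA, read 6.29 and 6.34 on the labelled Irf8KO Flt3+ arrays, 6.06 and 6.01 on the labelled Irf8KO Flt3- arrays, 6.37 and 6.33 on the WT Flt3+ arrays and 6.45 and 6.44 on the WT Flt3- arrays. The labelled Irf8KO Flt3- arrays were the low ones. Its difference there was -0.41 (SE 0.042, adjusted p = 0.0011) against WT Flt3- GPs. It was not called between WT populations (-0.10, adjusted p = 0.0876, and 0.30 after quantile normalization). Rfc2 read 4.51 and 4.47 on the labelled Irf8KO Flt3+ arrays, 4.42 and 4.52 on the labelled Irf8KO Flt3- arrays, 4.54 and 4.60 on the WT Flt3+ arrays and 4.66 and 4.62 on the WT Flt3- arrays, with all 8 arrays within a narrow range. Rfc3, Rfc4 and Rfc5, other subunits of the loader, were called lower in labelled Irf8KO than in WT Flt3- GPs (-0.44, -0.46 and -0.49). Rfc4 was also called higher in Flt3+ GPs labelled Irf8KO (0.24, SE 0.067, adjusted p = 0.0455 against WT), a call made under 3 of 5 scalings.

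Rpa2, Fen1 and Lig1 act on single strands and on the joining of lagging-strand fragments. All 3 were called lower in labelled Irf8KO than in WT Flt3- GPs, and none was called between genotypes in Flt3+ GPs. Of all genes, 27.2% were called lower in the first comparison and 29% were called in either direction in the second. Rpa2 read 2.48 and 2.52 on the labelled Irf8KO Flt3+ arrays, 2.32 and 2.43 on the labelled Irf8KO Flt3- arrays, 2.52 and 2.50 on the WT Flt3+ arrays and 2.85 and 2.84 on the WT Flt3- arrays. The WT Flt3- arrays were highest, the labelled Irf8KO Flt3- arrays lowest, and the Flt3+ groups of both genotypes overlapped between them. The flap nuclease Fen1 differed by -0.56 (SE 0.046, adjusted p = 0.000593) and DNA ligase Lig1 by -0.38 (SE 0.042, adjusted p = 0.00148) in Flt3- GPs.

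Among the genes of nucleotide supply, Rrm2 had the largest interaction of all members. It read 4.53 and 4.58 on the labelled Irf8KO Flt3+ arrays, 4.38 and 4.33 on the labelled Irf8KO Flt3- arrays, 4.22 and 4.25 on the WT Flt3+ arrays and 5.04 and 4.95 on the WT Flt3- arrays. The WT arrays held both extremes, and both groups labelled Irf8KO lay between them. Its difference between genotypes was 0.32 in Flt3+ and -0.64 (SE 0.048, adjusted p = 0.000471) in Flt3- GPs. Rrm1, its partner subunit, read 4.46 and 4.49 on the labelled Irf8KO Flt3+ arrays, 4.07 and 4.18 on the labelled Irf8KO Flt3- arrays, 4.52 and 4.60 on the WT Flt3+ arrays and 4.74 and 4.86 on the WT Flt3- arrays. It was lowest on the labelled Irf8KO Flt3- arrays and was not called between genotypes in Flt3+ GPs (-0.09, 95% interval -0.25 to 0.07). Dut read 4.33 and 4.37 on the labelled Irf8KO Flt3+ arrays, 4.10 and 4.0 on the labelled Irf8KO Flt3- arrays, 4.24 and 4.26 on the WT Flt3+ arrays and 4.74 and 4.76 on the WT Flt3- arrays. Tk1, which recycles thymidine, read 4.19 and 4.26 on the labelled Irf8KO Flt3+ arrays, 3.77 and 3.84 on the labelled Irf8KO Flt3- arrays, 4.16 and 4.18 on the WT Flt3+ arrays and 4.41 and 4.46 on the WT Flt3- arrays. For Dut and Tk1 the labelled Irf8KO Flt3- arrays were lowest, the WT Flt3- arrays highest, and the Flt3+ groups lay between. Tyms read -0.56 and -0.64 on the labelled Irf8KO Flt3+ arrays, -0.71 and -0.66 on the labelled Irf8KO Flt3- arrays, -0.54 and -0.69 on the WT Flt3+ arrays and -0.57 and -0.47 on the WT Flt3- arrays. It was the only member with no call in any of the 5 comparisons, and the WT populations overlapped.

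Among the chromatin assembly genes, Chaf1b differed by genotype in both populations. It read 4.45 and 4.54 on the labelled Irf8KO Flt3+ arrays, 4.44 and 4.51 on the labelled Irf8KO Flt3- arrays, 4.85 and 4.91 on the WT Flt3+ arrays and 5.03 on both WT Flt3- arrays. All 4 arrays labelled Irf8KO lay below all 4 WT arrays, with differences of -0.39 in Flt3+ and -0.56 (SE 0.052, adjusted p = 0.00088) in Flt3- GPs. Its interaction was not called (0.17, SE 0.074, adjusted p = 0.135). Chaf1a, the other CAF-1 subunit on the list, was called lower in Flt3- GPs only (-0.41, SE 0.062, adjusted p = 0.00383, against 0.13, adjusted p = 0.159, in Flt3+ GPs), and its interaction was called (0.54, SE 0.087, adjusted p = 0.00846). Uhrf1 read 5.53 and 5.55 on the labelled Irf8KO Flt3+ arrays, 5.24 and 5.12 on the labelled Irf8KO Flt3- arrays, 5.45 and 5.35 on the WT Flt3+ arrays and 5.76 and 5.71 on the WT Flt3- arrays. The labelled Irf8KO Flt3- arrays were the low ones. Slbp, which binds histone mRNA, was called higher in Flt3+ (0.26, SE 0.068, adjusted p = 0.0366) and lower in Flt3- GPs labelled Irf8KO (-0.24, SE 0.068, adjusted p = 0.0323).

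The G1/S regulators differed from each other. Ccne1 read 1.86 and 1.95 on the labelled Irf8KO Flt3+ arrays, 1.55 and 1.59 on the labelled Irf8KO Flt3- arrays, 1.88 and 1.97 on the WT Flt3+ arrays and 2.50 and 2.47 on the WT Flt3- arrays. The WT Flt3- arrays stood well above the rest, and the 2 Flt3+ groups overlapped. Ccne2, a second cyclin E, read -3.07 and -3.15 on the labelled Irf8KO Flt3+ arrays, -3.43 and -3.34 on the labelled Irf8KO Flt3- arrays, -3.47 on both WT Flt3+ arrays and -3.02 and -2.97 on the WT Flt3- arrays. It was high in labelled Irf8KO Flt3+ and WT Flt3- GPs and low in the other groups. With another background correction its difference between populations in GPs labelled Irf8KO was -0.01. E2f1 read 2.91 and 2.86 on the labelled Irf8KO Flt3+ arrays, 2.86 and 2.89 on the labelled Irf8KO Flt3- arrays, 3.17 and 3.14 on the WT Flt3+ arrays and 3.48 and 3.55 on the WT Flt3- arrays. Like Chaf1b and Gins1, it was lower on all arrays labelled Irf8KO than on any WT array, with -0.27 in Flt3+ and -0.64 (SE 0.044, adjusted p = 0.000369) in Flt3- GPs. Its interaction was also called (0.37, SE 0.062, adjusted p = 0.00941).

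Other replication and S phase genes, 57 in number and not members, were read for comparison. Of them 43 were called lower and none higher in labelled Irf8KO than in WT Flt3- GPs, with a median of -0.35, where 27.2% of all genes were called lower and 16.5% higher. In Flt3+ GPs 13 were called higher and 2 lower between genotypes (median 0.07), where 16.5% and 12.5% of all genes were. The interaction was called above 0 for 44 of 57 and below 0 for none, against 21.4% and 9.45% of all genes. Between populations, 28 were called higher and 3 lower in Flt3+ GPs labelled Irf8KO (22.1% and 23.6% of all genes), and 4 higher and 35 lower in WT Flt3+ GPs (22.6% and 39.2% of all genes). The largest fall in Flt3- GPs labelled Irf8KO was that of E2f7, a repressor of the E2F family (-1.13, SE 0.08, adjusted p = 0.000403), and the largest rise in Flt3+ GPs labelled Irf8KO was that of the primase subunit Prim2 (0.77, SE 0.063, adjusted p = 0.000679). E2f2, another activating E2F, was higher in Flt3+ GPs of both genotypes (1.53, SE 0.04, adjusted p = 3.57e-06, labelled Irf8KO; 0.89, SE 0.04, adjusted p = 1.76e-05, WT), unlike E2f1, which was not called in the labelled Irf8KO comparison and was lower in WT Flt3+ GPs (-0.36, SE 0.044, adjusted p = 0.000825).

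Genes of the G2 and M phases, which act after replication, had another order of groups. Their median deviation was 0.47 and 0.45 on the labelled Irf8KO Flt3+ arrays, -0.39 and -0.41 on the labelled Irf8KO Flt3- arrays, -0.05 and 0.02 on the WT Flt3+ arrays and -0.08 and -0.09 on the WT Flt3- arrays. In labelled Irf8KO against WT Flt3+ GPs 29 of 32 were called higher (median 0.46, with 16.5% of all genes called higher), where the replication members had a median of 0.06. In Flt3- GPs 25 of 32 were called lower (median -0.34, with 27.2% of all genes called lower), where the members had a median of -0.48. Between WT populations 10 of 32 were called higher and 8 lower (median 0.06), where 22.6% of all genes were called higher and 39.2% lower and the median of all genes was -0.12. Within GPs labelled Irf8KO, 32 of 32 were called higher in Flt3+ than in Flt3- GPs (median 0.81). For the members these were 21 of 38 and 0.19, and 22.1% of all genes were called higher. The interaction was called above 0 for 31 of 32 (median 0.79). For the members these were 35 of 38 and 0.53, and 21.4% of all genes were called above 0. Both medians had the sign of the members' and were larger. The difference between these lists and the members was not tested.

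**Figure D4:**
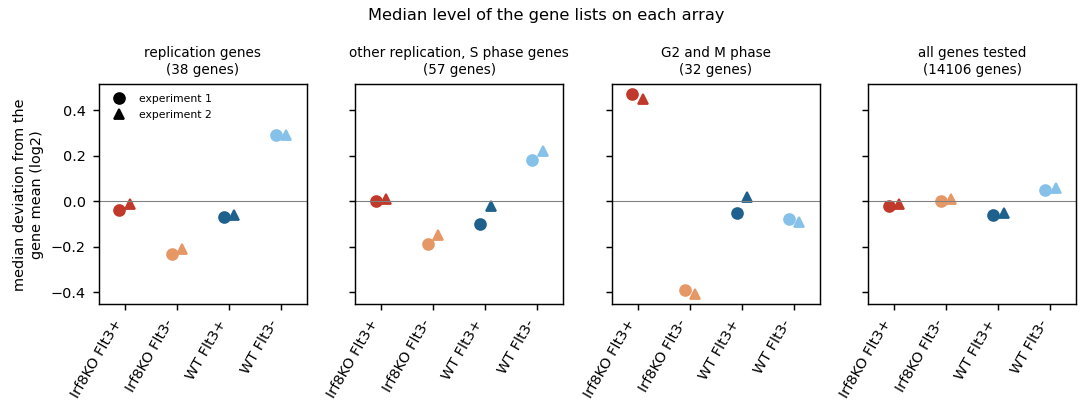
Median deviation of each list from the genes' own means over all 8 arrays, per array (log2), for the 38 replication genes, 57 other replication and S phase genes, 32 G2 and M phase genes and all 14106 genes tested, in labelled Irf8KO Flt3+, labelled Irf8KO Flt3-, WT Flt3+ and WT Flt3- GPs. Replication genes are highest at 0.29 on both WT Flt3- arrays, whereas G2 and M phase genes are highest at 0.47 and 0.45 on the labelled Irf8KO Flt3+ arrays.

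Markers of other cell types moved with the groups as well. The summed linear signal (relative to the 75th percentile) of 15 measured erythroid and megakaryocyte genes was 21.0 on the labelled Irf8KO Flt3+ arrays and 12.1 to 12.6 on the labelled Irf8KO Flt3- arrays, against 83.9 to 86.4 on the WT Flt3+ arrays and 38.9 to 39.0 on the WT Flt3- arrays. All 15 were called lower in both populations labelled Irf8KO. Markers of eosinophils, basophils and mast cells (7 genes) summed to 63.8 to 64.1 in labelled Irf8KO Flt3- GPs, against 136 in WT Flt3- GPs, with 6 of 7 called lower. In Flt3+ GPs they summed to 5.07 to 5.33 on the labelled Irf8KO arrays, against 10.9 to 11.6 on the WT arrays. There 4 of the 7 genes were called lower, 1 higher and 2 were not called (-4.1 to 0.5). All 8 mature neutrophil genes were called higher in both populations labelled Irf8KO, with sums of 37.6 to 38.4 in labelled Irf8KO Flt3+ GPs, against 8.53 to 8.67 in WT Flt3+ GPs, and of 33.3 to 33.4 in labelled Irf8KO Flt3- GPs, against 16.7 to 17.2 in WT Flt3- GPs. The sums of 12 granulocyte progenitor genes were 1410 on both labelled Irf8KO Flt3+ arrays, against 918 to 997 in WT Flt3+ GPs, and 2730 to 2970 in labelled Irf8KO Flt3- GPs, against 2410 to 2550 in WT Flt3- GPs. A linear sum rests mostly on its brightest genes. Of the 12, 8 were called higher and 2 lower in Flt3+ GPs labelled Irf8KO (median 0.72). In Flt3- GPs 6 were called higher and 3 lower (median 0.27). Lymphoid markers (8 genes) summed to 246 to 266 in Flt3+ and 7.22 to 7.48 in Flt3- GPs labelled Irf8KO, and to 136 to 144 in Flt3+ and 5.94 to 6.11 in Flt3- WT GPs, with 7 of 8 called higher in Flt3+ GPs of each genotype. Between genotypes 5 of 8 were called higher and 1 lower in Flt3+ GPs labelled Irf8KO. In Flt3- GPs 3 were called higher and 2 lower, and the median was -0.22. Stem and multipotent progenitor markers (6 genes) include Flt3, the receptor used for the sort. They summed to 101 to 102 in Flt3+ and 21.4 to 21.9 in Flt3- GPs labelled Irf8KO. In WT they summed to 115 to 117 in Flt3+ and 21.7 to 22.0 in Flt3- GPs. Between populations 5 of these 6 were called higher and 1 lower in Flt3+ GPs labelled Irf8KO, and all 6 were called higher in WT Flt3+ GPs. The sort itself sets Flt3, so these sums and calls between populations are not independent of it. Between genotypes 5 of 6 were called lower and none higher in Flt3+ GPs labelled Irf8KO (median -0.77). In Flt3- GPs 3 were called lower and 1 higher (median -0.27). Dendritic and monocyte markers (9 measured of 10) summed to 363 to 369 in Flt3+ and 312 to 332 in Flt3- GPs labelled Irf8KO, and to 283 to 312 in Flt3+ and 248 to 263 in Flt3- WT GPs. These sums include Irf8, whose probe read higher on the arrays labelled Irf8KO. Between genotypes the markers went both ways, with 4 called higher and 2 lower in Flt3+ GPs (-8.46 to 2.19). In Flt3- GPs 4 were called higher and 3 lower (-8.08 to 2.10). The lowest value in each population was also the lowest of all genes tested. As a base for the marker counts, 16.5% of all genes were called higher with the Irf8KO label than in WT, whichever the population. Called lower by that label were 12.5% (Flt3+) or 27.2% (Flt3-). For Flt3+ over Flt3-, the shares called higher and lower were 22.1% and 23.6% with the Irf8KO label, against 22.6% and 39.2% for WT. The part of these markers in the differences of the replication genes was not tested. The arrays lay on 1 slide with the genotypes in separate rows and the populations in separate columns, and slide position and group therefore cannot be told apart.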

How the data were processed

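Total RNA of sorted GPs was labelled with a low-input one-colour (Cy3) kit, per the labels' protocols. Spot intensities were deposited by the authors as extracted with Agilent Feature Extraction 10.7.3.1, per the file headers, with no scaling between arrays seen in the values. Flags for well above background and for outliers, which are other 0 or 1 values, were used as deposited. The authors' deposited series table holds intensity values equal to the processed intensity times 1 factor per array (0.672 to 1.33), found by comparison, on a linear scale and not centred, with column medians of 28.7 and 27.1 (labelled Irf8KO Flt3+), 27.5 and 27.6 (labelled Irf8KO Flt3-), 29.9 and 28.7 (WT Flt3+) and 26.9 and 28.0 (WT Flt3-). How the authors made it was not stated in any source read here, so it was used only in an alternative.

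Apart from control spots, an array had 59305 spots for 55681 probes. Well above background were 54.9 to 60.1% of spots, none was saturated, 93 to 178 outlier spots were left out, and the number of arrays limits the precision. The mean of a probe's spots was taken, and values were log2 of the intensity minus the log2 75th percentile of that array. Probes stayed in when some group had both of its arrays well above background. Names came through the RefSeq accession (GRCm38.p6 table), which named 26762 probes with 20284 symbols. A further 1628 probes had a RefSeq accession that matched no gene. For 5405 genes with several probes, the brightest probe (by its mean across the 8 arrays) was used. All 8 arrays were fitted in limma 3.58.1 (R 4.3.3) with 1 mean per group, empirical Bayes moderation (4 residual and 1.76 prior degrees of freedom) and Benjamini-Hochberg adjustment per comparison. Genes were called at an adjusted p under 0.05. The fit was also run on simulated data with independent noise, which checks the code and not the calls reported here. Titles number the experiments. Differences between experiment 1 and 2 correlated between groups at -0.03 to 0.12 across genes. The 5 scalings were the main one, normexp background correction, quantile normalization, the percentile over detected probes and the authors' table. The 75th percentile of the authors' table was 426.25 on all 8 arrays. That setting therefore nearly repeats the main one, and agreement between them adds no separate check. Array values are given for the 5 members with the largest called and the 2 with the smallest differences per comparison, the 5 largest interactions and members whose probes disagree. Values of Mcm2, Mcm6 and Pcna were added after they were seen. The members, the gene lists and the markers were chosen with earlier results of these data known.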

Additional observations from a re-analysis of the deposited data

Results flagged for a closer look

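The difference between genotypes (labelled Irf8KO over WT) itself differed between Flt3+ and Flt3- GPs at 35 of the 38 replication genes, by the test of the interaction in limma (adjusted p from 0.00136 to 0.0497). Each value is the log2 difference in Flt3+ GPs minus that in Flt3- GPs. In the helicase ring it was 0.47 for Mcm2, 0.44 for Mcm3, 0.51 for Mcm4, 0.54 for Mcm5, 0.36 for Mcm6 and 0.43 for Mcm7. In licensing and helicase activation it was 0.85 for Orc1, 0.65 for Orc6, 0.77 for Cdc6, 0.52 for Cdt1, 0.88 for Mcm10, 0.67 for Cdc45, 0.55 for Gins1 and 0.62 for Gins2. Polymerase genes stood at 0.55 for Pola1, 0.46 for Prim1, 0.38 for Pold1 and 0.45 for Pole, whose second probe stood at -0.25 and was not called. The clamp and its loader stood at 0.38 for Pcna, 0.36 for Rfc3, 0.70 for Rfc4 and 0.53 for Rfc5. Rpa2 stood at 0.46, Fen1 at 0.65 and Lig1 at 0.48. The nucleotide supply genes stood at 0.58 for Rrm1, 0.96 for Rrm2, 0.68 for Tk1 and 0.80 for Dut. Chromatin genes stood at 0.54 for Chaf1a, 0.69 for Uhrf1 and 0.51 for Slbp. The G1/S regulators stood at 0.90 for Ccne1, 0.75 for Ccne2 and 0.37 for E2f1. Over all genes, 21.4% were called above 0 in this test. So were 31 of 32 G2 and M phase genes and 44 of 57 other replication and S phase genes. Each value comes from 8 arrays, and the 2 arrays of a group allow no check for a single deviating array within a group.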

How the results depend on the processing

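The median difference of the replication genes between labelled Irf8KO and WT Flt3- GPs and the median interaction kept their sign under every alternative run, with 33 to 37 members called lower and 29 to 35 called above 0 when 1 array was left out. Values that moved are given by setting. After quantile normalization, labelled Irf8KO Flt3+ over Flt3- had a median of 0.27, WT Flt3+ over WT Flt3- had 7 members higher and 17 lower with a median of -0.11, labelled Irf8KO over WT in Flt3+ had 5 higher and 7 lower with a median of -0.02, and the medians were -0.39 in Flt3- and 0.35 for the interaction. With the percentile over probes detected on all arrays, the labelled Irf8KO populations had 0 lower and a median of 0.25, the WT populations 1 higher and -0.18, and the medians between genotypes were 0.02 in Flt3+, -0.43 in Flt3- and 0.44 for the interaction. With normexp background correction the medians were 0.21 between populations in labelled Irf8KO (0 lower) and -0.31 in WT, and between genotypes 0.01 in Flt3+ (5 higher) and -0.53 in Flt3-. Without a filter on dim probes, 0 members were lower between labelled Irf8KO populations and 4 higher between genotypes in Flt3+ GPs, and with only the groups compared these were again 0 and 4. With the mean of a gene's probes the population medians were 0.20 in labelled Irf8KO (2 lower) and -0.35 in WT.

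Members that changed sign and were called under the main or the other setting were, in WT Flt3+ over WT Flt3- after quantile normalization, Chaf1b (0.16), Lig1 (0.22), Mcm3 (0.13), Mcm7 (0.19), Pcna (0.30), Pold1 (0.08), Prim1 (0.09), Rfc2 (0.23), Rrm1 (0.07), Tk1 (0.01) and Uhrf1 (0.03), with Chaf1b at 0.00 under the percentile over detected probes. Pole, by the mean of its probes, was at -0.41 in labelled Irf8KO and -0.51 in WT between populations and 0.02 between genotypes in Flt3- GPs, and Ccne2 was at -0.01 between labelled Irf8KO populations with normexp. With members called under neither setting included, 13 changed sign over the 5 scalings between WT populations (Pola1 and Tyms beside those above), 3 between labelled Irf8KO populations, 8 between genotypes in Flt3+ and 0 in Flt3- GPs, and 2 in the interaction. The cause was not tested. Leaving out 1 array gave medians of 0.17 to 0.22 (populations, labelled Irf8KO), -0.36 to -0.34 (populations, WT), 0.04 to 0.10 (genotypes, Flt3+), -0.50 to -0.46 (genotypes, Flt3-) and 0.50 to 0.58 (interaction). It gave 15 to 22 higher and 0 to 1 lower in labelled Irf8KO, 27 to 31 lower in WT, and 3 to 6 higher and 1 to 2 lower between genotypes in Flt3+ GPs. With the experiment number as a replicate block, 23 members were higher and 1 lower in labelled Irf8KO, 33 lower in WT, 7 higher and 3 lower between genotypes in Flt3+, 36 lower in Flt3- and 35 above 0 in the interaction. The block ended the calls of Mcm6 (Flt3+) and Rfc2 (Flt3-), added Cdc6 and Slbp (labelled Irf8KO populations) and changed no other call. The interaction already uses all 4 groups, so a fit of only the groups compared gave no further value.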
